A study of Arabidopsis thaliana with 12 samples.

Results

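WRKY proteins are plant transcription factors named after the conserved residues of their DNA-binding domain, which carries a zinc finger and recognises the W-box in the promoters of target genes. Many WRKY genes are themselves transcribed within hours of attack by pathogens, wounding, osmotic stress or treatment with abscisic acid (ABA), and their products act as activators or as repressors of defence, senescence and stress genes. The family is divided by domain structure into group I, with a pair of WRKY domains, group II, with a single domain and subgroups IIa to IIe, and group III, with a variant zinc finger. The set described here held 53 WRKY loci of Arabidopsis thaliana, fixed by locus identifier, and does not cover every WRKY gene. Through the accession of the array probes 51 of the 53 loci were found among the 25405 loci with a probe, no probe was matched to WRKY4 or WRKY61, and all 51 were among the 19027 loci tested.

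The RNA came from whole seedlings, 10 days old and of the Landsberg erecta strain, of wild type and of proatcape1. The mutant is a single T-DNA insertion line of AT4G33730 (PROAtCAPE1), the gene for the precursor of the peptide AtCAPE1, in the same strain, so that effects of the locus and of other differences between the lines cannot be told apart. Both genotypes were sampled in half-strength Murashige and Skoog medium at 0 h (control) and after 12 h in 125 mM NaCl (salt), with 3 biological repeats in each of the 4 groups and 1 single-colour Agilent array for each of the 12 samples. No group was kept for 12 h without NaCl, so that salt and the 12 h cannot be told apart, and in whole seedlings fewer cells of a type and less RNA per cell cannot be told apart either. Below, a signal is the background-corrected intensity of a probe, scaled so that the 75th percentile of every array lies at 2138. A gene passed the test in limma at a Benjamini-Hochberg adjusted p of at most 0.05, taken over all 19027 loci, and a change over 1.5-fold. Signals of different probes cannot be compared with each other.

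The arrays were of similar quality, with 71.6 to 78.6% of probes well above background, no saturated spot, and correlations of 0.994 to 0.997 between arrays of a group. The 4 arrays with the same replicate number, 1 from each group, lay on 1 slide, and slide 3 was scanned on another day than slides 1 and 2. PROAtCAPE1 had signals of 586, 778 and 612 in wild type control, was not well above background on any proatcape1 array, and was at least 34.8-fold lower in proatcape1 than in wild type control. For such a bound the dim group is taken at the lowest signal that counted as well above background on its arrays, or at its own signal where that was higher. The 4 root markers CASP1, COBL9, EXPA7 and PRP3 all fell with salt, by 1.83 to 2.87 on the log2 scale in wild type and by 1.85 to 2.93 in proatcape1. Their summed signal ranged from 9296 to 11890 in wild type control, 9213 to 11310 in proatcape1 control, 2026 to 2667 in wild type salt and 2196 to 2649 in proatcape1 salt. Of the 4 shoot markers RBCS1A, CAB1 and CAB3 did not pass in either genotype, and LHCB2.1 rose by 1.17 in wild type and 1.80 in proatcape1. Of the 4 seed and flower markers, chosen as absent from the sample, the seed storage gene CRU3 ranged from 3.96 to 991 over the arrays. Its highest signals were on proatcape1 control 1 and 3, wild type salt 2 and proatcape1 salt 2 and 3. SESA3 ranged from 3.11 to 52.0 and AP3 from 15.5 to 65.6. PI lay between 258 and 421 and was well above background on every array. None of the root and shoot markers passed in a comparison of the genotypes, and the part of the falling root markers in the salt effects below was not tested.

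Most of these WRKY transcripts differed between control and 12 h of salt, and most of those were higher under salt. In wild type, 24 of the 51 members rose, 7 fell and 20 did not pass, where 17.5% of all loci tested rose and 21.8% fell, which is 39.3% in all. The median WRKY change was 0.55 on the log2 scale and that of all loci was -0.11. In proatcape1, 28 members rose, 8 fell and 15 did not pass, against 19.6% and 26.2% of all loci, or 45.8% together, with medians of 0.80 for the members and -0.13 for all loci. All 24 members that rose in wild type also rose in proatcape1, and all 7 that fell in wild type also fell there. Of the 24, WRKY8, WRKY30, WRKY38, WRKY43, WRKY48, WRKY51, WRKY55 and WRKY71 did not pass the signal filter, described below, in all 4 groups. Of the 7, WRKY13, WRKY42 and WRKY54 did not. These genes could be tested through the groups where they were high, so their tests are not free of that selection. The salt effects of the genotypes share no array, but their arrays share slides. WRKY11, WRKY29, WRKY46 and WRKY50 rose in proatcape1 without passing in wild type, and WRKY47 fell in proatcape1 without passing in wild type. Of these 5 genes, WRKY46 is the one for which the difference of the salt effects itself passed. WRKY50 did not pass the signal filter in all 4 groups, so its test is not free of that selection either. Control and salt arrays did not overlap for 30 members that were higher and 12 that were lower under salt in wild type, against 32.8% and 48.2% of all loci. In proatcape1 this held for 34 members that were higher and 12 that were lower, against 34.9% and 49.8% of all loci. Within each of the 3 slides, the 24 members were higher under salt in both genotypes, apart from WRKY55 in wild type on slide 3, and the 7 were lower in both genotypes.

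**Figure D1:**
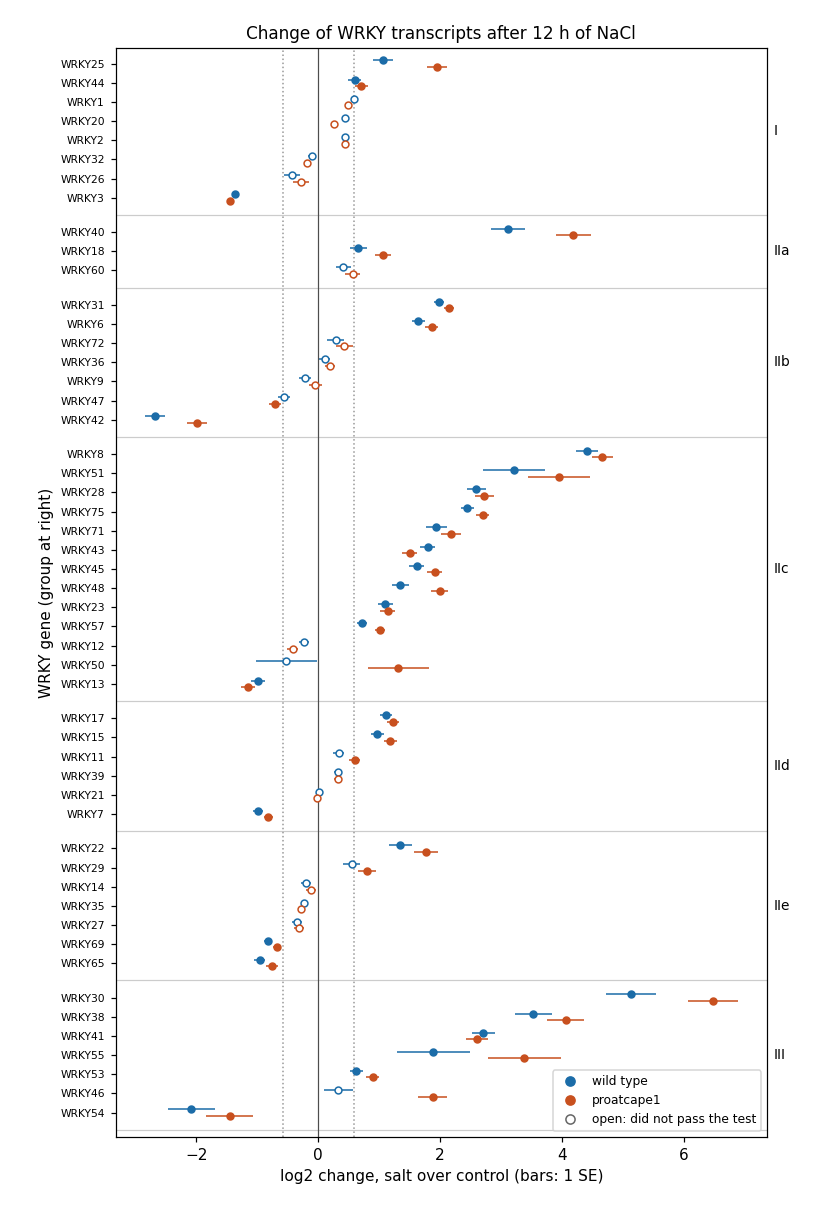
Log2 change of the 51 WRKY transcripts after 12 h in NaCl, with 1 SE, in wild type (blue) and proatcape1 (orange), 3 arrays per group, ordered within the WRKY groups named at the right. Filled points passed the test, and dotted lines mark 1.5-fold. Groups IIc and III hold most of the large rises, led by WRKY30 at 5.13 in wild type and 6.47 in proatcape1.

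Sorted by the groups of the family, the counts were as follows. In group III, 5 of 7 members rose and 1 fell in wild type (median 1.89), and 6 rose and 1 fell in proatcape1 (median 2.61). In group IIc, 10 of 13 rose and 1 fell in wild type (median 1.61), and 11 rose and 1 fell in proatcape1 (median 1.91). In the other groups in wild type, 2 of 3 members of group IIa, 2 of 8 of group I, 2 of 7 of group IIb, 2 of 6 of group IId and 1 of 7 of group IIe rose. Their wild-type medians lay between -0.24 in group IIe and 0.66 in group IIa. These counts describe the groups, and no test was made between them.

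WRKY30 (AT5G24110), a group III gene known for its induction by oxidative stress, had the largest rise of the 51 members in both genotypes. Its signal was 227, 85.2 and 136 in wild type control and 5041, 6480 and 3499 in wild type salt. In proatcape1 it was 37.1, 91.0 and 49.0 in control and 5139, 6265 and 3581 under salt. Every salt array thus lay far above every control array, while the control arrays of the genotypes overlapped. The rise was 35.1-fold in wild type (log2 5.13 ± 0.41 SE, adjusted p = 6.67e-07) and 88.6-fold in proatcape1 (log2 6.47 ± 0.41, adjusted p = 7.80e-08). The difference of these salt effects was 1.34 ± 0.58 and did not pass (adjusted p = 0.166).

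Of the other group III genes, WRKY38, a repressor of basal defence, rose from 59.5, 103 and 79.9 in wild type control to 1067, 1267 and 556 under salt, which was 11.53-fold (log2 3.53 ± 0.30, adjusted p = 1.20e-06). In proatcape1 its rise was 16.6-fold (log2 4.06 ± 0.30, adjusted p = 2.84e-07), from between 48.0 and 63.1 to between 804 and 1242. No control array of WRKY38 reached a salt array in either genotype. WRKY41, known from seed dormancy, rose 6.55-fold in wild type and 6.09-fold in proatcape1, with signals of 155, 132 and 165 in wild type control, 169, 185 and 131 in proatcape1 control, 1022, 1137 and 816 in wild type salt and 1073, 1144 and 750 in proatcape1 salt. It was 1 of only 2 members that rose in both genotypes with a smaller value in proatcape1, WRKY43 being the other. WRKY53, a regulator of leaf senescence, rose by 0.63 in wild type and 0.90 in proatcape1, and its wild-type call was lost without wild type salt 1 (0.58) or wild type salt 2 (0.55), which took the change below 1.5-fold. Its other kept probe gave larger rises of 2.00 ± 0.17 in wild type (adjusted p = 8.67e-07) and 2.65 ± 0.17 in proatcape1 (adjusted p = 6.91e-08), so the size of the WRKY53 response differs between the probes.

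WRKY55, a group III gene linked to senescence and salicylic acid, was unsteady in wild type control, where its signal was 57.9, 20.7 and 179. Wild type salt gave 262, 246 and 169, so the third control array lay above the third salt array and the groups overlapped. In proatcape1 the signal was 27.1, 33.6 and 29.3 in control and 399, 345 and 220 under salt, with no overlap. The rise passed in wild type (log2 1.89 ± 0.59, adjusted p = 0.0129) and in proatcape1 (log2 3.38 ± 0.59, adjusted p = 2.85e-04). The WRKY55 value in wild type was 1.12 without wild type control 2 and 2.68 without wild type control 3, and it passed in both cases. The call ended when the fit used only the groups compared (adjusted p = 0.0516) or array weights (1.00, adjusted p = 0.130).

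WRKY54, which acts as a negative regulator of leaf senescence, was the group III member that fell. Its signal was 141, 333 and 449 in wild type control and 74.3, 82.8 and 44.9 under salt, and in proatcape1 it was 251, 276 and 329 in control and 78.4, 129 and 111 under salt. The groups did not overlap in either genotype, although wild type control 1 lay closer to the salt arrays than to the other controls. The fall was 4.24-fold in wild type (log2 -2.08 ± 0.38, adjusted p = 4.55e-04) and 2.73-fold in proatcape1 (log2 -1.45 ± 0.38, adjusted p = 0.00468).

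**Figure D2:**
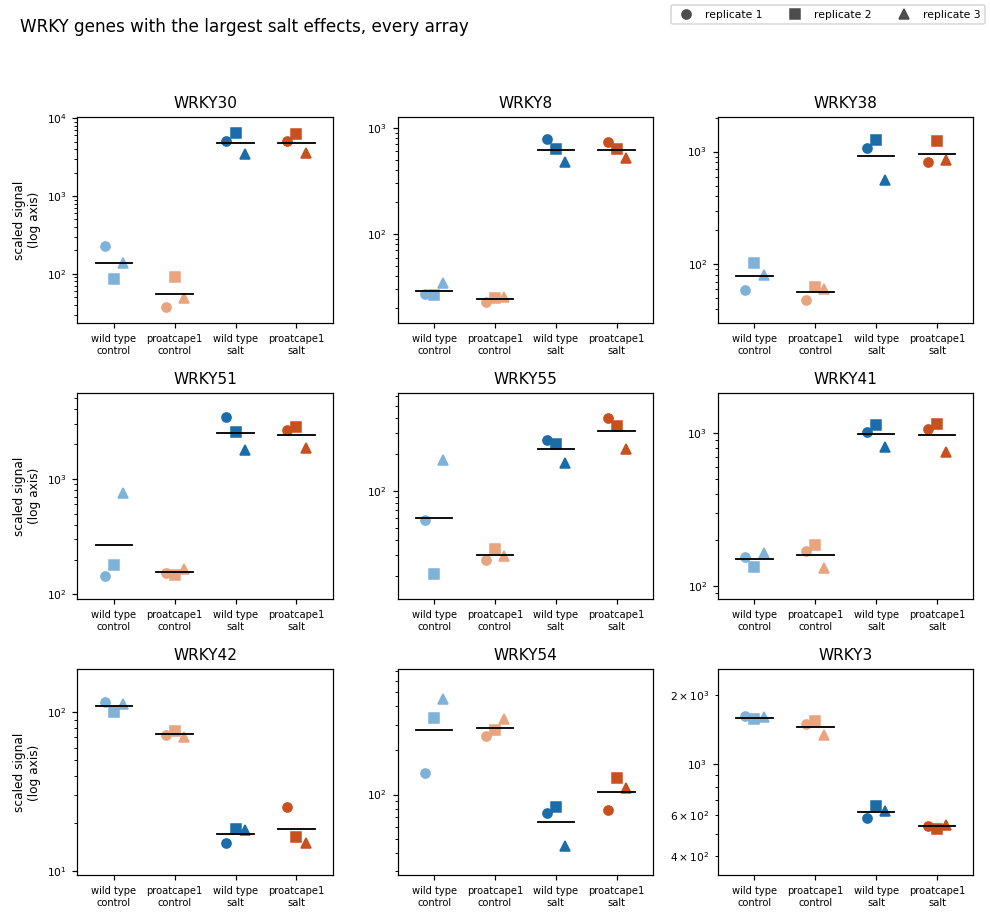
Scaled signal (log axis) of 9 WRKY genes with large salt effects on every array, by group, with circles, squares and triangles for replicates 1, 2 and 3 and a bar at the geometric mean. WRKY51 and WRKY55 show 1 high array in wild type control (754 and 179), and WRKY42, WRKY54 and WRKY3 are lower on the salt arrays.

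In group IIc, WRKY8 (AT5G46350), a factor known for a role in salt tolerance and for its binding to a VQ protein, was the gene with the lowest adjusted p among the members in wild type. Its signal was 27.3, 26.6 and 34.4 in wild type control and 791, 635 and 478 under salt, and 23.1, 25.0 and 25.5 against 728, 633 and 518 in proatcape1. It was well above background on only 2 of 3 arrays of each control group, and all salt arrays lay far above all control arrays. The rise was 21.2-fold in wild type (log2 4.41 ± 0.18, adjusted p = 4.45e-09) and 25.3-fold in proatcape1 (log2 4.66 ± 0.18, adjusted p = 2.17e-09).

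WRKY51, which represses jasmonate responses, stood at 144, 180 and 754 in wild type control and at 3469, 2533 and 1767 under salt. In proatcape1 it was at 154, 148 and 165 in control and at 2676, 2817 and 1864 under salt. Wild type control 3 was high for WRKY51 but still below every salt array. The rise was 9.26-fold in wild type (adjusted p = 1.49e-04) and 15.5-fold in proatcape1 (adjusted p = 2.44e-05), each log2 value having an SE of 0.51. Without wild type control 3 the wild-type value of WRKY51 rose from 3.21 to 3.95.

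WRKY75, known for phosphate starvation and senescence, rose 5.43-fold in wild type (log2 2.44 ± 0.11, adjusted p = 7.77e-09) and 6.49-fold in proatcape1 (log2 2.70 ± 0.11). Its control signals were 358, 385 and 440 in wild type and 378, 387 and 332 in proatcape1, and its salt signals were 2475, 1974 and 1991 and then 2441, 2490 and 2185. The groups of the genotypes overlapped in both conditions. WRKY57, known for drought tolerance and for acting on ABA synthesis genes, rose from 368, 407 and 367 to 647, 554 and 672 in wild type, a log2 change of 0.71 ± 0.08 (adjusted p = 1.31e-05). In proatcape1 WRKY57 went from 369, 382 and 334 to 711, 704 and 782, a change of 1.02 ± 0.08 (adjusted p = 5.62e-07), again without overlap.

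WRKY48, a stress-induced repressor of basal defence, was at 114, 81.1 and 117 in wild type control and at 268, 299 and 220 under salt. In proatcape1 it was at 98.1, 86.1 and 89.1 in control and at 363, 371 and 354 under salt. The proatcape1 salt arrays lay above all wild type salt arrays for this gene. The rise was 1.34 ± 0.14 in wild type and 2.00 ± 0.14 in proatcape1 (adjusted p = 5.63e-06 and 1.78e-07). Their difference of 0.65 ± 0.20 did not pass (adjusted p = 0.0705), but passed without wild type control 2 (0.82, adjusted p = 0.0217). WRKY28, WRKY71, WRKY45, WRKY43 and WRKY23 also rose in both genotypes. WRKY28 has been tied to salicylic acid synthesis and rose by 2.60 in wild type and 2.72 in proatcape1. WRKY45, an activator of phosphate uptake, rose by 1.61 and 1.91, and WRKY23, which acts in auxin responses of the root, rose by 1.099 and 1.141. WRKY13, a stem development factor, was the group IIc member that fell, from 98.5, 110 and 112 to 52.0, 53.9 and 55.4 in wild type (log2 -0.99 ± 0.12) and from 102, 95.003 and 107.5 to 52.7, 36.1 and 50.03 in proatcape1 (log2 -1.15 ± 0.12). The falls of WRKY13 shrank to -0.50 and -0.47, below 1.5-fold, with normexp background correction and a constant of 50 added to the signals. Such a constant by itself shrinks log2 changes of dim genes. Its part in the normexp results, here and below, was not separated from that of the correction. WRKY13 was well above background on 2 of 3 proatcape1 salt arrays.

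WRKY50, the close relative of WRKY51 in group IIc, rose in proatcape1 without passing in wild type. WRKY50 passed the signal filter only in proatcape1 salt, where it was high in this comparison, so the test of WRKY50 is not free of that selection. Its signal was 124, 128 and 472 in wild type control, 162, 162 and 95.3 in wild type salt, 31.9, 78.2 and 72.5 in proatcape1 control and 159, 117 and 148 in proatcape1 salt. Wild type control and salt overlapped, and the proatcape1 groups did not. The change was -0.53 ± 0.50 in wild type (adjusted p = 0.353) and 1.31 ± 0.50 in proatcape1 (adjusted p = 0.0312), and their difference of 1.84 ± 0.71 did not pass (adjusted p = 0.129). The WRKY50 call in proatcape1 ended without proatcape1 control 1 (0.90, adjusted p = 0.129), proatcape1 salt 1 (adjusted p = 0.0799) or proatcape1 salt 3 (adjusted p = 0.0708), with normexp (adjusted p = 0.0570) and with no filter on dim probes (adjusted p = 0.0534).

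Group IIa consists of WRKY18 (AT4G31800), WRKY40 (AT1G80840) and WRKY60 (AT2G25000), which form complexes through leucine zippers and are known as regulators of defence and of ABA responses. WRKY40 was at 566, 254 and 323 in wild type control and at 3603, 3817 and 2177 under salt, a rise of 8.64-fold (log2 3.11 ± 0.28, adjusted p = 1.74e-06). In proatcape1 it was at 144, 143 and 154 in control and at 2883, 2993 and 2220 under salt, a rise of 18.2-fold (log2 4.19 ± 0.28, adjusted p = 1.20e-07). Control and salt arrays of WRKY40 were far apart in both genotypes, and the salt arrays of the genotypes overlapped.

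WRKY18 was at 3904, 3472 and 4626 in wild type control, 6714, 6758 and 5406 in wild type salt, 2637, 2316 and 2494 in proatcape1 control and 5433, 5900 and 4339 in proatcape1 salt. The groups did not overlap between control and salt in either genotype. The rise was 1.58-fold in wild type (log2 0.66 ± 0.14, adjusted p = 0.00105) and 2.09-fold in proatcape1 (log2 1.06 ± 0.14, adjusted p = 2.36e-05). The WRKY18 call in wild type ended without wild type control 2 (0.56) and with array weights (0.49), both below 1.5-fold. WRKY60 was at 2126, 1980 and 2067 in wild type control, 2416, 3032 and 2793 in wild type salt, 1768, 1802 and 1373 in proatcape1 control and 2472, 2082 and 2754 in proatcape1 salt. Its salt arrays lay above its control arrays in both genotypes, but the changes of 0.41 ± 0.13 and 0.57 ± 0.13 stayed under 1.5-fold (adjusted p = 0.0119 and 0.00166). The WRKY60 change in proatcape1 passed when proatcape1 control 1 (0.62), proatcape1 control 2 (0.64) or proatcape1 salt 2 (0.67) was left out.

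In group I, WRKY25 (AT2G30250), a factor of heat and salt tolerance, was at 1986, 1442 and 2235 in wild type control and at 4242, 4428 and 3088 under salt, and at 1246, 1284 and 1155 against 5033, 4931 and 4307 in proatcape1. The salt arrays lay above the control arrays in both genotypes. The rise was 2.08-fold in wild type (log2 1.06 ± 0.17, adjusted p = 1.36e-04) and 3.87-fold in proatcape1 (log2 1.95 ± 0.17, adjusted p = 8.19e-07). WRKY26, a partner of WRKY25 in heat tolerance, was at 1472, 1468 and 1342 in wild type control and at 1121, 1033 and 1019 under salt, and at 1384, 1583 and 994 against 1121, 1036 and 1049 in proatcape1. Its changes of -0.43 ± 0.13 and -0.28 ± 0.13 were under 1.5-fold, and in proatcape1 the groups overlapped through control array 3.

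WRKY3 (AT2G03340), known from resistance to necrotrophic fungi, fell 2.56-fold in wild type (log2 -1.36 ± 0.06, adjusted p = 6.90e-09) and 2.72-fold in proatcape1 (log2 -1.44 ± 0.06, adjusted p = 3.22e-09). Its signal went from 1621, 1568 and 1601 to 585, 657 and 630 in wild type, and from 1503, 1537 and 1345 to 542, 526 and 543 in proatcape1. The replicates of WRKY3 lay close together in every group. WRKY44 (TTG2), a regulator of trichomes and seed coat, rose by 0.60 and 0.71, near the threshold, and its wild-type call was lost without wild type control 1 (0.50), wild type salt 1 (0.54) or wild type salt 2 (0.58). WRKY1, at 0.58 ± 0.04 in wild type (adjusted p = 1.69e-07), lay just under 1.5-fold and passed without wild type control 3, wild type salt 2 or wild type salt 3 (0.59 in each case).

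In group IIb, WRKY42 and WRKY6, which act on root phosphate transport through PHO1, moved in opposite directions. WRKY42 (AT4G04450) was at 117, 100.6 and 113 in wild type control and at 15.1, 18.5 and 18.2 under salt, and at 72.5, 75.8 and 70.4 against 25.4, 16.4 and 15.1 in proatcape1. Only 1 of 3 arrays in each salt group was well above background for WRKY42, so that its salt signals lay near the detection limit. The fitted fall was -2.67 ± 0.16 in wild type (adjusted p = 9.21e-08) and -1.98 ± 0.16 in proatcape1 (adjusted p = 6.69e-07), and with normexp the latter shrank to -0.58 and no longer passed. WRKY6, which also acts in senescence, rose by 1.64 ± 0.11 in wild type and 1.86 ± 0.11 in proatcape1. WRKY31 rose by 1.98 and 2.15. WRKY47 was lower under salt in both genotypes but passed the fold threshold in proatcape1 only, at -0.57 ± 0.10 in wild type (adjusted p = 3.29e-04, under 1.5-fold) and -0.71 ± 0.10 in proatcape1 (adjusted p = 5.08e-05). The difference of its salt effects was -0.14 ± 0.14 (adjusted p = 0.545). In wild type the WRKY47 value passed without wild type control 2 (-0.63) or wild type salt 2 (-0.62), and its other kept probe passed there (-0.62, adjusted p = 0.00155).

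The calmodulin-binding factors of group IId held both directions. WRKY17 and WRKY15 rose, by 1.11 and 0.97 in wild type and by 1.23 and 1.18 in proatcape1. WRKY17 and WRKY11 are known as negative regulators of basal resistance, and WRKY15 as a regulator of growth under osmotic stress. WRKY11 changed by 0.34 ± 0.09 in wild type and rose by 0.60 ± 0.09 in proatcape1, where the call was lost without proatcape1 control 1 (0.58), proatcape1 control 3 (0.56), proatcape1 salt 1 (0.58) or proatcape1 salt 2 (0.53). WRKY7 fell from 3095, 2644 and 2912 to 1424, 1579 and 1364 in wild type (log2 -0.99 ± 0.08, adjusted p = 5.76e-07) and from 2469, 2716 and 2318 to 1390, 1446 and 1416 in proatcape1 (log2 -0.82 ± 0.08, adjusted p = 1.93e-06). The control and salt arrays of WRKY7 did not overlap. WRKY21 had values of 0.02 in wild type and -0.01 in proatcape1.

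In group IIe, WRKY22 and WRKY29, known as factors downstream of the mitogen-activated protein (MAP) kinases of flagellin signalling, had positive salt effects. WRKY22 rose by 1.35 ± 0.19 and 1.76 ± 0.19. WRKY29 changed by 0.55 ± 0.15 in wild type, where it passed without wild type salt 3 (0.73), and rose by 0.80 ± 0.15 in proatcape1. WRKY65 fell from 3897, 4438 and 4008 to 1961, 2126 and 2256 in wild type (log2 -0.96 ± 0.09, adjusted p = 3.53e-06) and from 4101, 4493 and 3553 to 2475, 2179 and 2528 in proatcape1 (log2 -0.75 ± 0.09, adjusted p = 1.97e-05). WRKY69 fell by 0.83 and 0.68 on the log2 scale. Neither of these falling genes had overlapping control and salt arrays.

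Among the 24 members that rose in both genotypes, 22 had a larger value in proatcape1 than in wild type, WRKY41 and WRKY43 being the exceptions. Of the 3138 loci that rose in both genotypes 71.1% had the larger value in proatcape1. Of the 7 members that fell in both genotypes, only WRKY3 and WRKY13 fell more in proatcape1, against 77.2% of the 3889 loci that fell in both. The difference between the salt effects passed for WRKY25 and WRKY46, both with the larger effect in proatcape1, where 1.27% of all loci passed in that direction and 1.29% in the other. On the salt arrays of the 24 risen genes, slide 3 held the lowest of the 3 signals for 19 genes in wild type and for 19 in proatcape1. That share was not counted over the other loci that rose, so it cannot be read as particular to the WRKY genes. Replicate 3, slide 3 and the second scan day cannot be told apart.

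In medium alone, 3 WRKY genes were lower in proatcape1 than in wild type and none was higher. These were WRKY18, WRKY40 and WRKY46, that is, 2 of the 3 group IIa genes and a group III gene known from drought and osmotic stress. They made up 3 of 51 members, where 1.16% of all loci tested passed as lower and 0.967% as higher, 2.12% in all. At an unadjusted p under 0.05 there were 17 of 51 members, beside 3804 of the 19027 loci tested. Of the 51 members 38 had a value below 0 in this comparison, with a median of -0.13, where the median of all loci was 0.004. The groups did not overlap for 14 members that were lower and 5 that were higher in proatcape1, against 11.6% and 14.3% of all loci.

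WRKY46 (AT2G46400) was at 443, 311 and 657 in wild type control and at 162, 173 and 191 in proatcape1 control. The lowest wild type array thus lay well above the highest proatcape1 array, and the wild type arrays were the more spread. The difference was 2.57-fold (log2 -1.36 ± 0.24, adjusted p = 0.0107), with within-slide values of -1.46, -0.84 and -1.78. Under salt the signals were 617, 692 and 424 in wild type and 681, 611 and 638 in proatcape1, which overlapped (log2 0.18 ± 0.24, 95% interval -0.35 to 0.72, adjusted p = 0.581). The salt effect on WRKY46 was accordingly 0.33 ± 0.24 in wild type (adjusted p = 0.225) and 1.88 ± 0.24 in proatcape1 (adjusted p = 2.42e-05), comparisons that share their control arrays with the genotype comparison. The difference of the salt effects was 1.54 ± 0.34 (adjusted p = 0.0280). That call ended without wild type control 1 (adjusted p = 0.0519), proatcape1 control 1 (0.0652), proatcape1 control 3 (0.0586), wild type salt 3 (0.0588), proatcape1 salt 1 (0.0656) or proatcape1 salt 2 (0.0518), and on the first scan day alone WRKY46 gave 1.13 (adjusted p = 0.200). The wild-type salt effect on WRKY46 passed without wild type control 3 (0.61, adjusted p = 0.0195). Its lower level in proatcape1 control passed whichever array was left out.

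**Figure D3:**
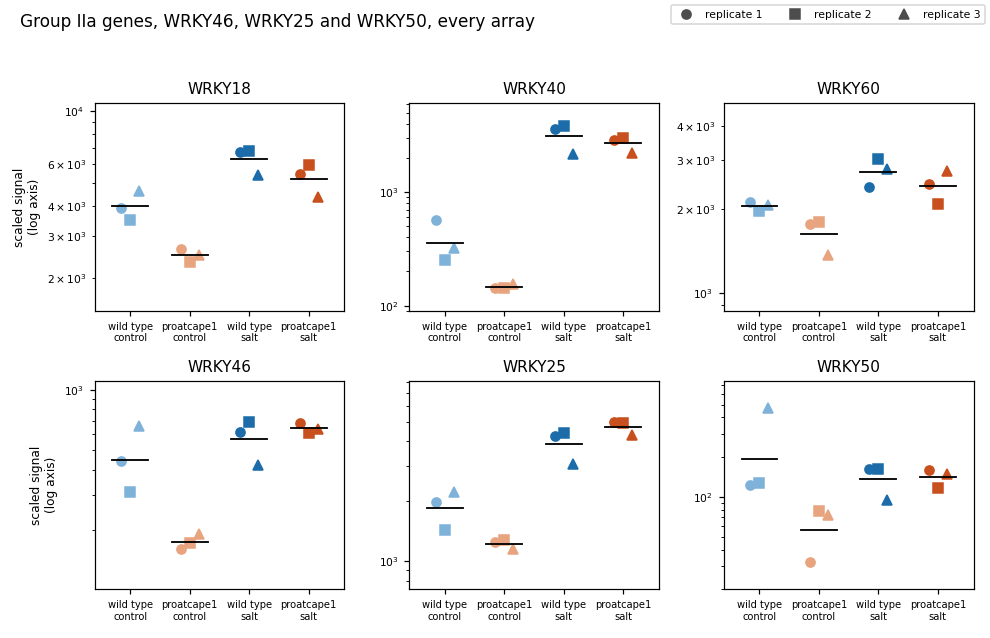
Scaled signal (log axis) of WRKY18, WRKY40, WRKY60, WRKY46, WRKY25 and WRKY50 on every array, by group, with a marker shape per replicate and a bar at the geometric mean. In control, the proatcape1 arrays lie below all wild type arrays for the 6 genes, and under salt the arrays of the genotypes overlap for all 6.

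For WRKY40, whose control signals are given above, the lowest wild type array (254) lay above the highest proatcape1 array (154). The difference in control was 2.45-fold (log2 -1.29 ± 0.28, adjusted p = 0.0246), and within slides it was -1.98, -0.83 and -1.07. The WRKY40 call in control was lost without wild type control 1 (-0.96, adjusted p = 0.0600), wild type control 3 (0.0658), proatcape1 control 1 (0.0791), proatcape1 control 2 (0.0748) or proatcape1 control 3 (0.0663), with no filter on dim probes (0.0561) and with a fit of the 2 groups alone (0.0649). Under salt the difference was -0.21 ± 0.28 (95% interval -0.84 to 0.41). The difference of the salt effects was 1.08 ± 0.40 and did not pass (adjusted p = 0.115).

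WRKY18 was 1.603-fold lower in proatcape1 control (log2 -0.68 ± 0.14, adjusted p = 0.0176), with no overlap between the genotypes and within-slide values of -0.57, -0.58 and -0.89. The call of WRKY18 in control was lost without wild type control 1 (adjusted p = 0.0539), wild type control 3 (-0.57), proatcape1 control 2 (0.0654) or proatcape1 control 3 (0.0538), on the first scan day alone (0.0585), and with the mean of its kept probes (-0.54, under 1.5-fold), since its other kept probe gave -0.39 (adjusted p = 0.0562). Under salt it was -0.27 ± 0.14 (95% interval -0.57 to 0.03, adjusted p = 0.145), and the difference of the salt effects was 0.41 ± 0.19 (adjusted p = 0.202). WRKY60, the third gene of the group, was also below wild type on every control array, at -0.33 ± 0.13 (adjusted p = 0.173).

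WRKY25 had a genotype difference of -0.60 ± 0.17 in control, which did not pass (adjusted p = 0.0642) although its proatcape1 arrays lay below all wild type arrays. Under salt it was 0.29 ± 0.17 (adjusted p = 0.193). The difference of its salt effects, 0.89 ± 0.23, passed narrowly (adjusted p = 0.0458), and with the slide, which is the replicate number, as a block it did not pass (adjusted p = 0.0605). Without the block, it no longer passed without any 1 array other than wild type control 2 and wild type salt 1, the adjusted p then lying between 0.0583 for proatcape1 salt 3 and 0.108 for proatcape1 control 3. In turn, the control difference of WRKY25 passed without wild type control 2 (-0.78, adjusted p = 0.0107) or wild type salt 3 (adjusted p = 0.0400).

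WRKY50, WRKY30 and WRKY55 had control differences of -1.79 ± 0.50, -1.33 ± 0.41 and -1.003 ± 0.59 that did not pass (adjusted p = 0.0671, 0.0907 and 0.392). Without wild type control 2 all 3 genes passed as lower in proatcape1, at -2.10 for WRKY50 (adjusted p = 0.0459), -1.68 for WRKY30 (adjusted p = 0.0344) and -1.77 for WRKY55 (adjusted p = 0.0319). Together with WRKY25 that raised the number of members that passed in control from 3 to 7. Without wild type control 1, wild type control 3 or proatcape1 control 2 the number was 1, WRKY46. WRKY43 was the member with the highest value, 0.48 ± 0.12 (adjusted p = 0.0495, under 1.5-fold), and it passed as higher without proatcape1 control 3 (0.60). WRKY42, at -0.59 ± 0.16 (adjusted p = 0.0640), passed without proatcape1 salt 1 (adjusted p = 0.00623) or proatcape1 salt 3 (adjusted p = 0.0492).

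The wild type control arrays were themselves uneven for several of these genes. A coefficient of variation over 30% was found for 7 of 51 members in wild type control (WRKY30, WRKY40, WRKY46, WRKY50, WRKY51, WRKY54 and WRKY55), for 2 in proatcape1 control, for 2 in wild type salt and for none in proatcape1 salt. These shares were not counted over all loci, so the spread cannot be read as particular to the WRKY genes. The high array was not the same throughout. Wild type control 1 was highest for WRKY30 and WRKY40, and wild type control 3 for WRKY46, WRKY50, WRKY51, WRKY54 and WRKY55. The median coefficient over the 51 members was 8.37% in control and 10.8% under salt for wild type, and 7.16% in control and 8.85% under salt for proatcape1.

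**Figure D4:**
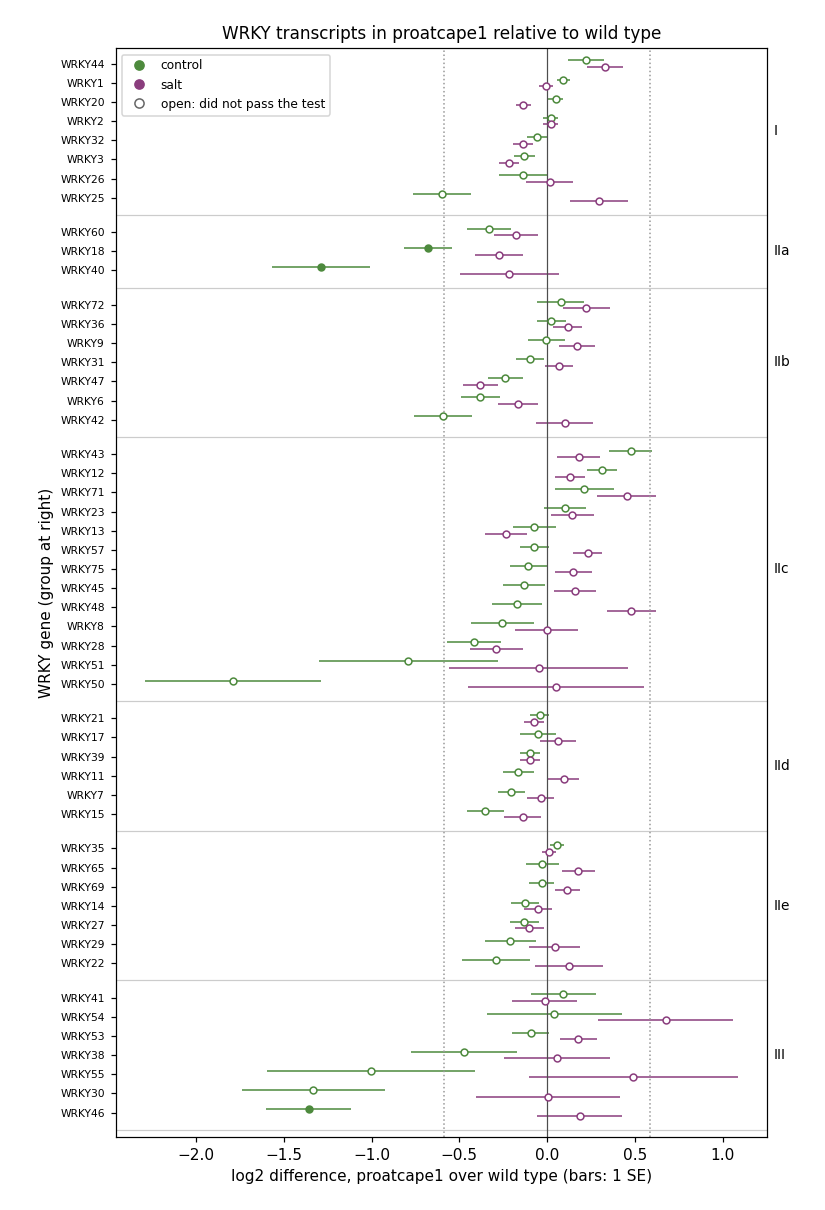
Log2 difference between proatcape1 and wild type for the 51 WRKY transcripts, with 1 SE, in control (green) and under salt (purple), 3 arrays per group, ordered within the WRKY groups named at the right. Filled points passed the test, and dotted lines mark 1.5-fold. WRKY18, WRKY40 and WRKY46 are filled in control, and no gene is filled under salt.

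Under salt, 0 of 51 WRKY genes passed between the genotypes in limma, where 2.71% of all loci passed as higher in proatcape1 and 1.95% as lower. At an unadjusted p under 0.05 there were 8 of 51 members, beside 8594 of the 19027 loci tested. Of the members, 5 had an adjusted p of at most 0.05 with a change under 1.5-fold. That share was not counted over all loci, so it cannot be read as a trait of the WRKY genes. These 5 were WRKY3 (-0.22 ± 0.06, adjusted p = 0.0179), WRKY20 (-0.13), WRKY44 (0.33), WRKY47 (-0.38, adjusted p = 0.0159) and WRKY48 (0.48 ± 0.14, adjusted p = 0.0249). Each of them had groups that did not overlap, as had 10 members in all, 6 higher and 4 lower, against 22.4% and 26.4% of all loci. The estimates ran from -0.38 for WRKY47 to 0.68 for WRKY54. For 38 of the 51 members the 95% interval lay within 1.5-fold in either direction, and the widest reached -1.18 for WRKY51 and 1.81 for WRKY55, so that a difference of over 2-fold lies inside the interval of both these genes.

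WRKY factors bind VQ proteins, small partners with a conserved VQ motif that modify their activity. Of 34 VQ genes with a probe 23 were tested, and 12 of them rose and 2 fell in wild type, and 14 rose and 2 fell in proatcape1, beside the 17.5% and 21.8% of all loci in wild type and 19.6% and 26.2% in proatcape1. VQ13 and VQ29 passed the signal filter only in the salt groups, where they were high. Their tests and these counts are therefore not free of that selection. Of the untested genes in wild type, VQ2, VQ17 and VQ18 were lower and VQ26 was higher under salt without overlap. VQ29, known from light signalling and defence, rose from 41.2, 11.4 and 4.83 to 833, 1049 and 572 in wild type, where 1 of 3 control arrays was well above background (adjusted p = 5.73e-06). In proatcape1 it was not well above background in control and rose at least 23.2-fold. VQ13 was not well above background on any control array and rose at least 11.4-fold in wild type and at least 8.27-fold in proatcape1. VQ28 rose by 3.11 ± 0.17 and 3.31 ± 0.17, and VQ12, a modulator of defence against Botrytis, by 2.80 ± 0.16 and 3.01 ± 0.16.

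VQ32 was lower in proatcape1 in both conditions, at 3565, 3607 and 3423 against 1064, 1030 and 974.9 in control and at 4597, 4586 and 3890 against 1637, 1679 and 1476 under salt. The genotypes were widely separated in both. The differences were -1.79 ± 0.07 (adjusted p = 2.96e-07) and -1.45 ± 0.07 (adjusted p = 1.65e-06). VQ16 (SIB2), a sigma factor binding protein, was at 219, 149 and 168 in wild type salt and at 277, 253 and 290 in proatcape1 salt, and passed as higher in proatcape1 there (0.63 ± 0.13, adjusted p = 0.00536). The VQ16 call ended without wild type salt 2 (0.51) and with normexp (0.54), both under 1.5-fold, and on the first scan day alone (0.55, adjusted p = 0.105). No VQ gene passed for the difference of the salt effects.

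Of 10 MAP kinase cascade genes tested, whose kinases phosphorylate several WRKY factors, MKK9 and MPK11 rose in both genotypes and none fell, a share of risen genes near that of all loci (17.5% and 19.6%). MKK9, a kinase of ethylene and senescence signalling, rose by 1.00 ± 0.10 in wild type and 1.34 ± 0.10 in proatcape1. MPK11, a close relative of MPK4, was at 194, 143 and 324 in wild type control, 439, 380 and 365 in wild type salt, 52.2, 67.8 and 72.3 in proatcape1 control and 572, 448 and 446 in proatcape1 salt. As with WRKY46, the proatcape1 control arrays were the low ones, and the other groups lay above them. MPK11 was 3.28-fold lower in proatcape1 control (log2 -1.71 ± 0.25, adjusted p = 0.00360), its salt effects were 0.92 ± 0.25 and 2.93 ± 0.25, and their difference of 2.02 ± 0.35 passed (adjusted p = 0.0149). On the first scan day alone the difference for MPK11 was 1.80 (adjusted p = 0.146), and with array weights its rise in wild type did not pass (0.59, adjusted p = 0.0549).

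**Figure D5:**
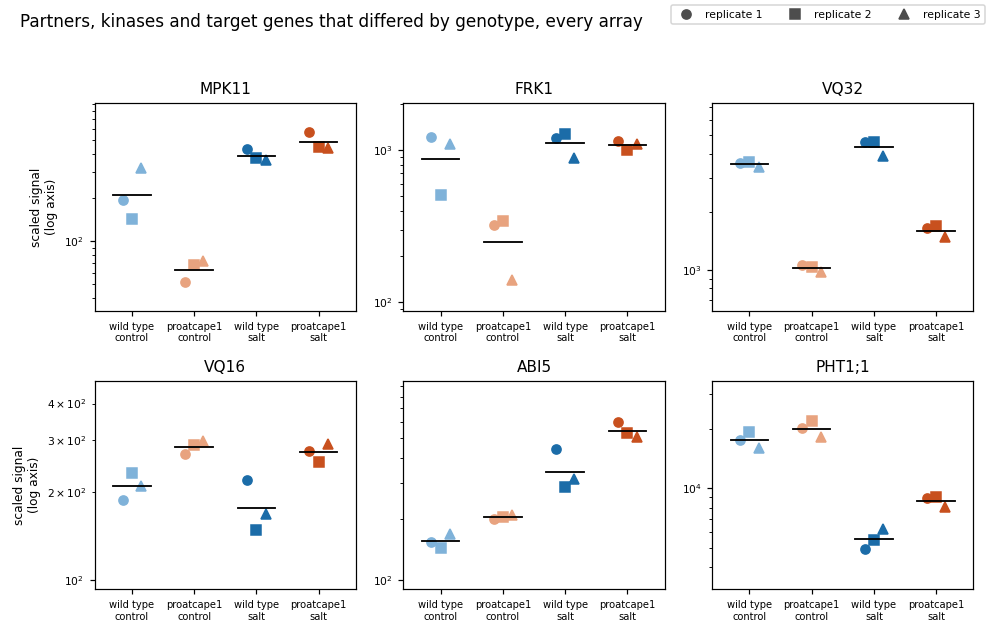
Scaled signal (log axis) of MPK11, FRK1, VQ32, VQ16, ABI5 and PHT1;1 on every array, by group, with a marker shape per replicate and a bar at the geometric mean. MPK11 and FRK1 are low on the proatcape1 control arrays alone, and VQ32 is low on all 6 proatcape1 arrays.

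Of 12 genes described as targets of WRKY factors, 8 were tested, and 3 rose and 1 fell in wild type, and 4 rose and 2 fell in proatcape1, where 39.3% and 45.8% of all loci passed in either direction. NCED3, the key enzyme of ABA synthesis, rose by 4.58 ± 0.24 and 4.68 ± 0.24. NCED3 passed the signal filter only in the salt groups, where it was high, so its test and these counts are not free of that selection. RD29A, a dehydration-responsive gene, rose by 4.13 ± 0.24 and 3.78 ± 0.24. FRK1, a receptor kinase used as a marker of flagellin responses, was at 1207, 509 and 1085 in wild type control and at 322, 343 and 140 in proatcape1 control, a difference of -1.81 ± 0.37 (adjusted p = 0.0192). This FRK1 call was lost without wild type control 1 (-1.58, adjusted p = 0.0772) or wild type control 3 (-1.65, adjusted p = 0.0804), with a fit of the 2 groups alone (adjusted p = 0.0933) and on the first scan day alone (-1.24, adjusted p = 0.238). Its signal under salt was 1200, 1272 and 881 in wild type and 1139, 998 and 1094 in proatcape1, which overlapped. FRK1 rose in proatcape1 by 2.11 ± 0.37 (adjusted p = 2.82e-04), changed by 0.34 ± 0.37 in wild type (adjusted p = 0.417), and the difference of the salt effects did not pass (1.77 ± 0.52, adjusted p = 0.0644), but passed without wild type control 2 (2.16, adjusted p = 0.0300).

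PHT1;1, a phosphate transporter controlled by WRKY42 and WRKY45, fell by 1.66 and 1.21 on the log2 scale with salt in wild type and proatcape1. Under salt it was at 4946, 5491 and 6273 in wild type and at 8925, 9008 and 8083 in proatcape1, and passed as higher there (0.64 ± 0.10, adjusted p = 0.00191). Without wild type salt 1 the value of PHT1;1 was 0.56, under 1.5-fold. ABI5, a transcription factor of ABA signalling on which WRKY18, WRKY40 and WRKY60 are known to act, rose with salt by 1.13 and 1.41. Under salt it was at 441, 287 and 314 in wild type and at 597, 533 and 507 in proatcape1, without overlap (0.68 ± 0.13, adjusted p = 0.00509). The ABI5 call ended without wild type salt 2 (0.55, under 1.5-fold) and on the first scan day alone (0.67, adjusted p = 0.0740).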

How the data were processed

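Whole-seedling RNA was measured on 12 single-colour Agilent arrays, 3 in each of 4 groups. The authors scanned the arrays with Agilent Feature Extraction 10.7.1.1, and the deposited processed signal is a linear intensity from which the scanner software had subtracted the background of the array. The deposited normalized values are log2 values that the authors made in GeneSpring, with wild type control as the reference, and served as an alternative. Here, spots with an outlier flag were dropped, the median taken over the remaining spots of a probe, and 76 of 43603 probes left out for flags. Probes were matched to loci by accession through the RefSeq table of the genome. Log2 signals were set relative to the 75th percentile of the array. Probes were kept with a signal over 100 and a coefficient of variation under 50% on the 3 arrays of at least 1 group, and the brightest probe stood for a locus (28833 probes, 19027 loci). A member could therefore pass the filter through the group where it was high, and 38 of 51 passed it in all 4 groups. Those that did not were WRKY8, WRKY12, WRKY13, WRKY30, WRKY38, WRKY42, WRKY43, WRKY48, WRKY50, WRKY51, WRKY54, WRKY55 and WRKY71.

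Group means were fitted over all 12 arrays with limma 3.58.1 in R 4.3.3 without a block, and Python 3.11.15 was used for the other steps. Intervals are at the 95% level. The procedure was tested on simulated data with independent noise and no slide effect. That test does not cover the correlations within slides given below. The replicate numbers coincide with the slides. Deviations of same-numbered arrays correlated over 0.1 in all 3 pairs between the genotypes under salt (0.237 to 0.366), in 2 of 3 in control (0.0866 to 0.304) and in 1 of 12 between control and salt (-0.203 to 0.120), so the slide pairs the salt arrays of the genotypes. A fit with the slide as a block is given where it changes a call. Alternatives were normexp with a constant of 50 added, quantile and median scaling, other filters, probe rules, weights, thresholds and left-out arrays. Depth is not defined for arrays, and their number limits the precision.

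The WRKY genes given with every array were the 6 largest rises and falls per salt comparison, all that passed a genotype comparison or the interaction with the 3 largest changes in each, and genes known from salt, ABA or stress. Of each other list, the 4 largest changes in each salt comparison and all that passed between the genotypes were named. Other genes were named after their values were seen. The members and lists were chosen with earlier results of these data known.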

Additional observations from a re-analysis of the deposited data

Results flagged for a closer look

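The salt effect differed between the genotypes, by the test of the difference itself, for 2 of the 51 WRKY genes and for 1 MAP kinase gene. Of all loci tested, 2.56% passed this test. WRKY46 had a difference of 1.54 on the log2 scale (adjusted p = 0.0280), with a salt effect of 0.33 in wild type and 1.88 in proatcape1. WRKY25 had a difference of 0.89 (adjusted p = 0.0458), with salt effects of 1.06 and 1.95, and did not pass with the slide as a block (adjusted p = 0.0605). MPK11 had a difference of 2.02 (adjusted p = 0.0149), with salt effects of 0.92 and 2.93. For these 3 genes the proatcape1 control arrays lay below every wild type control array. None of the 3 passed on the first scan day alone. The calls of WRKY46 and WRKY25 were also lost without some single arrays, as given above.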

How the results depend on the processing

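The count of WRKY genes that rose with salt stayed within 1.5 times of 24 in wild type and of 28 in proatcape1 under every alternative run, at 22 to 26 and 26 to 29 without single arrays. It was lowest, at 16 and 19, among the 38 members past the filter in all 4 groups. Of the 17227 loci past the filter in all 4 groups, 15.3% rose and 19.9% fell in wild type, and 17.5% rose and 24.6% fell in proatcape1. The count that fell, 7 in wild type, was 3 at over 2-fold, 13 with no fold threshold and 4 among members past the filter in all 4 groups, and 7 to 8 without single arrays. In proatcape1 the count of 8 was 5 with normexp, 4 at over 2-fold and 5 among members past the filter in all 4 groups, and 8 without any single array. WRKY55 in wild type turned to -0.0836 within slide 3, where 1 array stood on each side. The cause was not tested.

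The count that passed between the genotypes in control, 3, was 9 with array weights, 7 at an unadjusted p with the fold threshold, 1 on the first scan day alone, an alternative chosen after seeing the data, and 10, 5 and 11 over 1.5-fold within slides 1, 2 and 3 with no test. It was 1 to 7 without single arrays. Under salt the count of 0 was 5 with no fold threshold and 2, 1 and 6 within the slides, and 0 without any single array. The count for the difference of the salt effects, 2, was 1 with normexp, 1 with quantile normalization, 0 with no filter on dim probes, 1 with the filter on probes well above background, 6 with array weights, 7 at an unadjusted p, 1 at over 2-fold, 0 on the first scan day and 9 and 13 within slides 1 and 3. It was 0 to 3 without single arrays. Apart from the filter in all 4 groups, the shares of all loci under these alternatives were not counted. The counts in this section show how calls move with the setting. They do not compare the WRKY genes with other loci.

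With the replicate number, which is also the slide, as a block, the count for the difference of the salt effects was 1, since WRKY25 no longer passed (0.89, adjusted p = 0.0605), and the counts of the other comparisons were 24, 7, 28, 8, 3 and 0 as without the replicate block. The block ended no other call among the WRKY genes given with every array. Signals near background limit WRKY8, WRKY13, WRKY42 and WRKY50, the members that were not well above background on every array.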
